A study of Mus musculus with 18 samples.

Results

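Macroautophagy genes were followed in the livers of mice that lack lysosomal acid lipase. The list held 38 genes of the core machinery. They were chosen by gene symbol and not by a threshold on measured values, though with earlier results of these data known. All 38 were among the 35441 genes of the deposited count table and among the 14533 genes tested. They were grouped into 7 roles, namely the ULK initiation complex (5 genes), the class III PI3-kinase complexes (6), lipid supply and phosphoinositide binding (6), ATG12 conjugation (6), the ATG8 proteins themselves (5), ATG8 processing (5) and cargo receptors (5).

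In macroautophagy a membrane sheet, the phagophore, grows around cytoplasmic cargo, closes into an autophagosome and fuses with a lysosome, whose enzymes digest the content. The ULK kinase complex starts the process, the PI3-kinase complex marks the membrane with phosphatidylinositol 3-phosphate, and 2 ubiquitin-like conjugation systems attach ATG8 proteins to the membrane, where cargo receptors dock. In hepatocytes this route also delivers lipid droplets to lysosomes, where lysosomal acid lipase, encoded by Lipa, hydrolyses cholesteryl esters and triglycerides.

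Liver RNA came from 18 male mice, with 3 mice in each of 6 groups. WT littermates, untreated Lipa-/- mice and rAAV8-treated Lipa-/- mice were each sampled at 12 and 34 weeks post-injection, which the labels give as 3 and 8 months. In Lipa-/- mice, exon 4 was deleted through a Cre driven by the ubiquitous CMV promoter, on a C57/BL6N background, so that all cells of the body lack the enzyme. Treated mice had received, as young adults, an rAAV8 vector with human LIPA cDNA and a 3xHA tag under the hAAT promoter, which is active mainly in hepatocytes. According to the methods, a single untreated Lipa-/- mouse was alive at the late time point and the others had been killed at their endpoints, so most untreated mice labelled with that time point may have been sampled earlier. The time points also carry different number prefixes in the labels, and 1 untreated mouse of the 12-week group (mouse 5) has a prefix of its own. The labels do not say what the prefixes stand for, and time and prefix cannot be told apart.

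Each library held 17527848 to 25833134 assigned reads, of which the 38 genes took between 0.169% and 0.297%. Values are CPM, which are read counts relative to the size of the library, after scaling by trimmed means of M-values (TMM), unless they are named as TPM. Murine Lipa stood at 202 to 323 CPM in WT mice and at 16.7 to 37.0 CPM in all Lipa-/- mice, and the human transgene at 523 to 2746 CPM in treated mice and at most 0.906 CPM in the others. Hepatocyte markers were abundant in every library, with a summed level of at least 21519 CPM over the 7 markers in the table. Nothing in the labels says more of how the mice of a group relate to each other than that they are separate animals.

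Some members carry in their promoters the motif read by TFEB, a transcription factor that drives lysosomal and autophagy genes. RefSeq promoters were matched for 32 of the 38 genes. The E-box CACGTG was found, on either strand of the 300 bases around the start, in 5 of them (Atg14, Rubcn, Atg5, Atg7 and Atg3), and in 8.09% of all 27025 genes with a promoter. Its longer form GTCACGTG, which holds the E-box, was found in 3 of the 32 and in 2.55% of all genes. These 3 promoters are shown because Tfeb and its relatives are among the measured genes below. Each line runs 5′ to 3′ on the gene's strand from 225 bases before to 25 bases after the start, with the longer motif, or its reverse complement in Atg14, in capitals.
Atg3, GRCm39 chr16:44978967-44979216, plus strand: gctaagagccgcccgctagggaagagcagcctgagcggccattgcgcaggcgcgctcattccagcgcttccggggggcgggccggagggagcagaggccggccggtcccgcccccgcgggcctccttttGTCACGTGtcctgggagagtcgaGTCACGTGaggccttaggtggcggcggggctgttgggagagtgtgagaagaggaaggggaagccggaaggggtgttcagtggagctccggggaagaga
Atg7, GRCm39 chr6:114647832-114648081, plus strand: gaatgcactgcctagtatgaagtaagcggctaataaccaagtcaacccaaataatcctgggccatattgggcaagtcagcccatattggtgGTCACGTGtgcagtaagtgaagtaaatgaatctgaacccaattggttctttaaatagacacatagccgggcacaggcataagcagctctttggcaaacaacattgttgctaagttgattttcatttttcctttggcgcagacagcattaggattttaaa
Atg14, GRCm39 chr14:47805867-47806116, minus strand: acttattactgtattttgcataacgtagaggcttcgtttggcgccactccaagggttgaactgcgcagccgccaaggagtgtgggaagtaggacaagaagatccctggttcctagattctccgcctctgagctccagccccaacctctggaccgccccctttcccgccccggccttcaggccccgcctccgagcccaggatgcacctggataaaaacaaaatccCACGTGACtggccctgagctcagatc
Atg3 holds the motif in 2 copies, at -96 and -73 from the start, Atg7 holds it at -134, and in Atg14 it lies across the start. These are starts of RefSeq transcripts, and in the annotation of GRCm39 used here all 3 windows lie inside the gene. The start used for Atg7 is internal, far downstream of the gene's first base at chr6:114620044, and the window of Atg14 likewise lies downstream of that gene's outermost start at chr14:47808106. The antioxidant response element TGACNNNGC was found in 4 of the 32 (Ulk2, Atg13, Map1lc3b and Tax1bp1) and in 13.99% of all genes. A match describes the letters of the window and is no measured binding.

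The levels of the members spanned more than 3 orders of magnitude. On the length-corrected TPM scale, the cargo receptor Sqstm1 (p62) stood highest in WT livers at 12 weeks with 228 ± 45 TPM (SD, n = 3), followed by the ATG8 proteins Gabarap with 204 ± 25 TPM and Gabarapl1 with 163 ± 37 TPM, whose values lay within each other's spread. Gabarapl2 (61.6 ± 8.6 TPM), Map1lc3b (55.3 ± 11), Atg101 (49.0 ± 1.7), Map1lc3a (42.5 ± 7.8) and Atg3 (41.5 ± 6.1) came next. Every value of Gabarapl2 in this group lay above those of Atg101, Map1lc3a and Atg3, whereas Map1lc3b overlapped with each of them. Most kinases and conjugation enzymes lay lower, for example the PI3-kinase catalytic subunit Pik3c3 at 4.23 ± 0.72 TPM. Atg9b, the second ATG9 scramblase gene, had 1 to 19.4 reads per library, too few to show a difference at this depth.

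The first comparison asked what loss of the lipase does to the machinery. In untreated Lipa-/- livers, 9 of the 38 genes were lower and 1 was higher than in WT livers at 12 weeks, and 16 were lower and 1 was higher at 34 weeks (edgeR quasi-likelihood test, adjusted p under 0.05). Of all genes tested, 16.3% were lower and 22.9% higher at 12 weeks, and 23.5% lower and 23.8% higher at 34 weeks. The median log2 fold change of the 38 genes was -0.36 at 12 weeks and -0.50 at 34 weeks, beside 0.02 and -0.03 over all genes tested. With a change of over 2-fold as well, 1 member was lower and 0 higher at 12 weeks, against 9.06% and 20.2% of all genes, and 6 were lower and 1 higher at 34 weeks, against 15.7% and 20.5%. The count of lower genes was 5 at 12 weeks without any one of WT mice 1, 2 and 3, and 10 at 34 weeks without Lipa-/- mouse 4. With 3 mice in a group, p-values rest on a spread estimated over all 18 mice and shared across genes. A call can therefore also depend on mice outside the groups compared. All 38 genes are shown by role in the map of log2 fold changes.

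**Figure D1:**
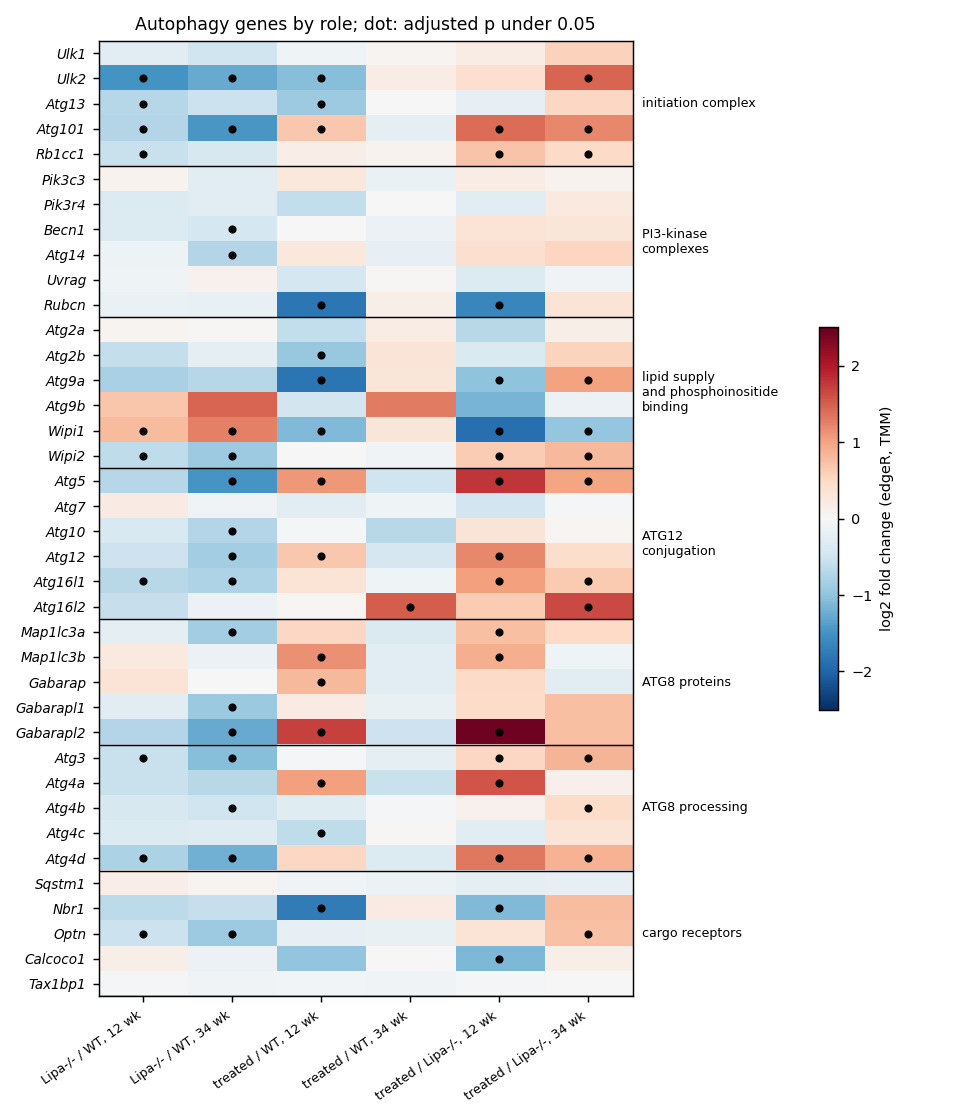
Log2 fold changes (edgeR, TMM scaling) of the 38 autophagy genes, in rows by role, for 6 comparisons within a time point, in columns. Blue is lower and red is higher in the first-named group, and a dot marks an adjusted p under 0.05. The first 2 columns hold 9 and 16 lower calls and 1 higher call each (Wipi1), the fourth column holds 1 call (Atg16l2), and under total-count scaling the calls of the first 2 columns fall to 1 and 2 lower against 4 and 5 higher.

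In the initiation complex, which phosphorylates the first substrates of autophagy, 4 of 5 genes were lower at 12 weeks and 2 of 5 at 34 weeks. Ulk2, one of the 2 ULK kinases, on chr11:61665841-61746170 of GRCm39, had the largest decrease among the members at 12 weeks. It stood at 42.4, 33.7 and 65.0 CPM in WT mice 1, 2 and 3 and at 17.8, 20.9 and 11.5 CPM in Lipa-/- mice 5, 8 and 9. All 3 Lipa-/- values lay under the lowest WT value. The log2 fold change was -1.49 ± 0.30 (SE, adjusted p = 0.00076, edgeR), or 2.81-fold lower. At 34 weeks Ulk2 was at 29.0, 49.97 and 46.7 CPM in WT mice and at 17.2, 17.4 and 18.01 CPM in Lipa-/- mice 4, 5 and 6, again without overlap, with a log2 fold change of -1.26 ± 0.29 (adjusted p = 0.00207).

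Atg101, which stabilises ATG13 within the ULK complex, fell at both time points, by 0.73 ± 0.26 on the log2 scale at 12 weeks (adjusted p = 0.0323, edgeR) and by 1.45 ± 0.26 at 34 weeks (adjusted p = 0.000223). It was at 75.0, 37.2 and 36.7 CPM in WT mice and at 17.2, 17.8 and 19.3 CPM in Lipa-/- mice at 34 weeks, so the groups did not overlap although 1 WT mouse stood apart from the other 2. The 12-week call was lost without WT mouse 1 or 2 or Lipa-/- mouse 5 or 8 (adjusted p up to 0.121), the 34-week call in no fit without 1 mouse. Atg13, the adaptor of the complex, and Rb1cc1 (FIP200), its scaffold, fell at 12 weeks, with log2 fold changes of -0.71 and -0.55, and Rb1cc1 turned to 0.38 on the TPM scale (adjusted p = 0.233, limma). Ulk1, the other ULK kinase, overlapped between the groups, with 31.8, 30.3 and 47.8 CPM in WT mice and 24.9, 42.4 and 23.1 CPM in Lipa-/- mice at 12 weeks and a log2 fold change of -0.28 ± 0.37 (adjusted p = 0.578, edgeR).

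The PI3-kinase complexes moved little. None of the 6 genes passed the test at 12 weeks (edgeR; 1 of 6 had an unadjusted p under 0.05), and 2 were lower at 34 weeks. Becn1 (beclin 1), the core subunit of both complexes, on chr11:101176769-101193122, was at 57.6, 53.2 and 60.6 CPM in WT mice and at 39.6, 42.9 and 43.6 CPM in Lipa-/- mice at 34 weeks. The groups were apart by a small distance, with a log2 fold change of -0.44 ± 0.14 (adjusted p = 0.0177, edgeR), which became 0.19 under total-count scaling (adjusted p = 0.384). The call was lost without WT mouse 3 or Lipa-/- mouse 4 (adjusted p up to 0.0947). Atg14, which directs the complex to autophagosome formation, fell by 0.73 ± 0.22 on the log2 scale at 34 weeks (adjusted p = 0.0105). Uvrag, its counterpart in the endosomal complex, the complex's inhibitor Rubcn and the kinase subunits Pik3c3 and Pik3r4 had log2 fold changes between -0.27 and 0.11 at 34 weeks, and none passed the test.

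Wipi1 was the single member called higher in this comparison under TMM scaling. Of the 38 log2 fold changes, 9 were above 0 at 12 weeks and 6 at 34 weeks. Total-count scaling gave 4 and 5 higher calls. WIPI proteins bind phosphatidylinositol 3-phosphate on the phagophore, and Wipi1 is on chr11:109464156-109502793. It was at 9.70, 10.0 and 13.9 CPM in WT mice and at 22.3, 19.5 and 16.1 CPM in Lipa-/- mice at 12 weeks. At 34 weeks it was at 6.19, 9.38 and 13.7 CPM in WT mice and at 23.2, 28.2 and 19.3 CPM in Lipa-/- mice. Every Lipa-/- mouse stood above every WT mouse of its time point. The log2 fold change was 0.78 ± 0.30 at 12 weeks (adjusted p = 0.0486, edgeR) and 1.27 ± 0.30 at 34 weeks (adjusted p = 0.00245), or 2.41-fold, and was larger under total-count scaling (1.24 and 1.87). The 12-week call was lost in 12 of the 18 fits without 1 mouse (highest adjusted p = 0.149), the 34-week call in none.

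Its relative Wipi2, which recruits ATG16L1 to the phagophore, went the other way and fell by 0.63 ± 0.15 on the log2 scale at 12 weeks (adjusted p = 0.00305) and by 0.91 ± 0.15 at 34 weeks (adjusted p = 0.0001). The lipid transfer proteins Atg2a and Atg2b and the scramblase Atg9a did not pass the test at either time point. Atg9a, on chr1:75157503-75169327, was at 33.7, 27.8 and 51.8 CPM in WT mice and at 28.0, 22.8 and 13.9 CPM in Lipa-/- mice at 12 weeks, with 1 Lipa-/- mouse inside the WT range.

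In the ATG12 conjugation system, 1 of 6 genes was lower at 12 weeks and 4 of 6 at 34 weeks. Atg5, the acceptor of ATG12, on chr10:44142076-44240308, was at 99.1, 44.3 and 50.6 CPM in WT mice and at 21.1, 23.3 and 25.03 CPM in Lipa-/- mice at 34 weeks. It had the largest decrease among the members at that time point, with a log2 fold change of -1.48 ± 0.31 (adjusted p = 0.000813, edgeR), and kept the call on the TPM scale (-0.70, limma, adjusted p = 0.0167). The scaffold Atg16l1 fell at both time points (log2 fold changes of -0.69 and -0.77), and Atg12 and its E2-like enzyme Atg10 fell at 34 weeks (-0.86 and -0.73), where Atg10 was at 0.03 on the TPM scale. Atg7, the E1-like enzyme that both conjugation systems share, was at 0.21 ± 0.22 at 12 weeks (adjusted p = 0.471) and at -0.09 ± 0.22 at 34 weeks (adjusted p = 0.754).

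The ATG8 proteins, which coat the growing membrane, did not all move alike. None of 5 passed the test at 12 weeks (edgeR; 0 of 5 had an unadjusted p under 0.05), where Gabarapl2 had the lowest log2 fold change of the 5, at -0.73. At 34 weeks Gabarapl2, Gabarapl1 and Map1lc3a were lower. A difference between the time points is not shown, since no ATG8 gene passed the interaction test. Gabarapl2, on chr8:112667322-112682011, was at 139, 55.6 and 56.8 CPM in WT mice and at 31.1, 37.3 and 36.1 CPM in Lipa-/- mice, with a log2 fold change of -1.26 ± 0.40 (adjusted p = 0.0157). The call was lost without WT mouse 1 or without Lipa-/- mouse 4 (adjusted p up to 0.148). Map1lc3b, the LC3B used as the standard marker of autophagosomes, was at 113, 143 and 91.8 CPM in WT mice and at 108, 143 and 159 CPM in Lipa-/- mice at 12 weeks, and at 171, 79.0 and 88.4 CPM and 89.3, 116 and 99.2 CPM at 34 weeks. The groups overlapped at both time points, and the log2 fold changes were 0.24 ± 0.31 (adjusted p = 0.575) and -0.15 ± 0.31 (adjusted p = 0.712). On the TPM scale Map1lc3b was higher, by 0.85 at 12 weeks and 0.79 at 34 weeks (log2, limma, adjusted p = 0.0121 and 0.0131), and so was Gabarap, by 0.97 and 0.93 (adjusted p = 0.000976 and 0.000955).

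Among the enzymes that process ATG8 proteins, 2 of 5 were lower at 12 weeks and 3 of 5 at 34 weeks. Atg3, the E2-like enzyme of lipidation, was at 81.5, 93.0 and 91.2 CPM in WT mice and at 60.5, 62.0 and 57.3 CPM in Lipa-/- mice at 12 weeks. At 34 weeks it was at 101, 84.6 and 89.5 CPM in WT mice and at 37.9, 44.9 and 47.8 CPM in Lipa-/- mice, less than in any mouse of the earlier group. The log2 fold changes were -0.56 ± 0.18 (adjusted p = 0.0204, edgeR) and -1.07 ± 0.18 (adjusted p = 0.000143). The first call was lost without WT mouse 2 or 3 or Lipa-/- mouse 9 (adjusted p up to 0.0649), the second in no fit without 1 mouse. The protease Atg4d was at 51.8, 25.03 and 23.5 CPM in WT mice and at 15.6, 12.6 and 15.3 CPM in Lipa-/- mice at 34 weeks, with a log2 fold change of -1.21 ± 0.27 (adjusted p = 0.00152). Of its paralogues, Atg4b fell by 0.50 ± 0.17 on the log2 scale at 34 weeks (adjusted p = 0.0189) but was at 0.14 under total-count scaling, and Atg4a and Atg4c did not pass the test.

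Of the cargo receptors, only Optn (optineurin) was called in this comparison, with log2 fold changes of -0.54 ± 0.18 at 12 weeks (adjusted p = 0.0224) and -0.91 ± 0.18 at 34 weeks (adjusted p = 0.000487). Sqstm1, which links ubiquitinated cargo to ATG8 proteins, was at 366, 539 and 444 CPM in WT mice and at 394, 585 and 537 CPM in Lipa-/- mice at 12 weeks, with overlap between the groups and a log2 fold change of 0.17 ± 0.24 (adjusted p = 0.607). On the TPM scale the log2 fold change of Sqstm1 was 0.97 (limma, adjusted p = 0.00448), from 228 ± 45 TPM to 442 ± 43 TPM. Nbr1, a receptor related to Sqstm1, Calcoco1 and Tax1bp1 lay between -0.64 and 0.15 on the log2 scale at the 2 time points and did not pass the test.

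The sign of a part of the members depended on the scaling. Under total-count scaling 12 of the 38 log2 fold changes had the other sign at 12 weeks and 15 at 34 weeks, and on the TPM scale 12 and 18. TMM factors were 0.806 to 1.07 in WT mice and 1.16 to 1.69 in untreated Lipa-/- mice. Scaling by total counts instead moved the median of all genes by 0.47 at 12 weeks and 0.63 at 34 weeks on the log2 scale, and the median of the 38 genes became 0.10 and 0.13. Under it 4 members were higher and 1 lower at 12 weeks, and 5 higher and 2 lower at 34 weeks, while of all genes 34.1% were higher and 6.47% lower at 12 weeks and 40.1% and 10.6% at 34 weeks. The distance of the members' median from that of all genes was -0.38 and -0.48 under total-count scaling and -0.41 and -0.45 in DESeq2. A change of library scaling moves all genes by nearly the same amount, so this distance could hardly move with it, and nothing is concluded from its steadiness. The distance was smaller on the TPM scale, at -0.27 and -0.29, where the median of the 38 genes was 0.10 and 0.25. Direction as given by TMM is a direction relative to the bulk of the genes.

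**Figure D2:**
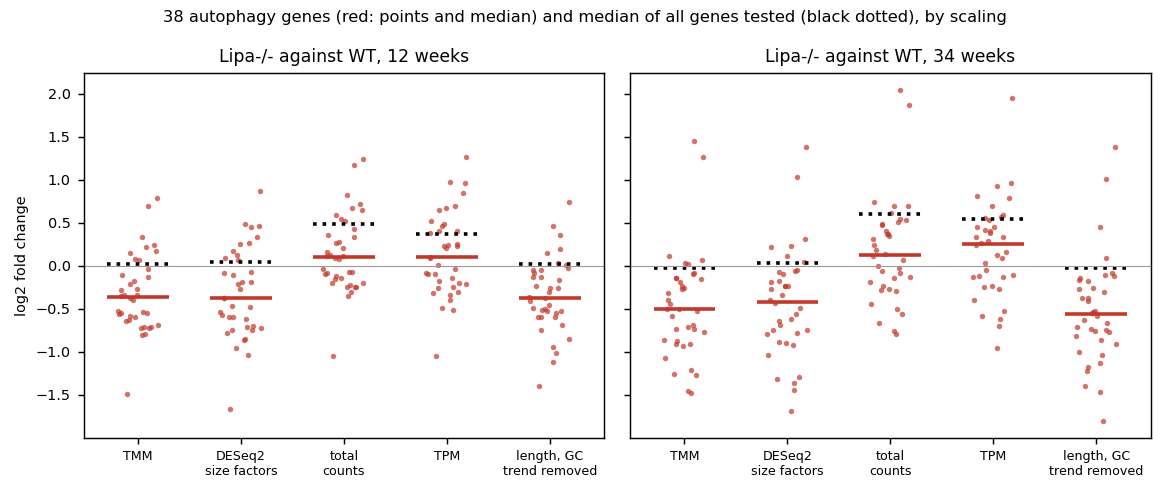
Log2 fold changes of the 38 autophagy genes between Lipa-/- and WT livers at 12 weeks (left) and 34 weeks (right) under 5 ways of scaling. Red points are genes, the red bar is their median and the black dotted bar is the median of all genes tested. The red bar lies under the black bar in every column, at -0.36 and -0.50 with TMM, whereas under total-count scaling (0.10 and 0.13) and on the TPM scale (0.10 and 0.25) it lies above 0.

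The cell mixture of the livers also moved with genotype. Over 7 macrophage markers the summed level was 79.5 to 176 CPM in WT mice and 2562 to 6069 CPM in Lipa-/- mice at 12 weeks, and 136 to 274 CPM and 2183 to 3695 CPM at 34 weeks, and 6 of the 7 markers rose at each time point. Over 7 hepatocyte markers it was 64988 to 80779 CPM in WT mice and 38208 to 58218 CPM in Lipa-/- mice at 12 weeks, and 58882 to 77687 CPM and 21519 to 48322 CPM at 34 weeks, and 3 and 6 of the 7 fell. Stellate and fibroblast markers (5 and 6 of 7 higher), cholangiocyte markers (3 and 5 of 5 higher), neutrophil markers (6 and 4 of 6 higher) and T cell markers (4 of 6 higher at each time point) moved too. In WT mice at 12 weeks 4 of the 6 neutrophil markers (Ly6g, Ngp, Camp and Mpo) were at 0. For Kupffer cell, B cell and endothelial markers, 2 of 5, 1 of 4 and 1 of 6 were higher and 1, 0 and 2 were lower at 12 weeks. At 34 weeks 0, 0 and 1 were higher and 2, 1 and 2 were lower, and 1 stellate marker was lower at each time point. The part of these shifts in the values of the autophagy genes was not tested, and in bulk liver fewer cells of a type and less RNA per cell cannot be told apart.

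Genes around the core machinery were read from 5 further lists, with calls under TMM scaling. Of all genes tested, 22.9% were higher and 16.3% lower at 12 weeks, and 23.8% and 23.5% at 34 weeks. Several counts of these short lists lay near those shares and do not set a list apart. Of 8 other phagophore factors, 1 was higher and 3 were lower at each time point. Sh3glb1, a beclin 1 partner that bends membranes, rose (log2 fold changes of 1.16 and 1.07), and Ei24, an ER protein of autophagosome formation, fell (-0.76 and -1.49), as did the scramblase Tmem41b at 12 weeks (-0.86). Of 15 genes for the fusion of autophagosomes with lysosomes, 6 were higher at each time point and 0 and 2 were lower. Tecpr1, a tether on lysosomes, rose most (2.25 and 2.45), and the autophagosomal SNARE Stx17 fell at 34 weeks (-0.77). Of 14 receptors for organelles, 0 were higher, and 2 and 8 were lower, with the glycogen receptor Stbd1 lowest at 12 weeks (-0.87) and the mitophagy receptor Bnip3 at 34 weeks (-1.35).

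Of 12 mTORC1 and AMPK genes, 2 were higher and 2 lower at 12 weeks, and 3 and 6 at 34 weeks. At 12 weeks these counts lay near the shares of all genes given above. Those shares also stand beside the transcription factors that follow. The AMPK subunit Prkab2 rose (log2 fold changes of 1.01 and 1.51) and the catalytic subunit Prkaa2 fell (-1.46 at each time point). Of 6 transcription factors of autophagy genes, 4 rose at both time points, namely Tfec (2.15 and 1.71), Tfeb (1.51 and 1.08), Mitf (1.26 and 1.57) and Tfe3 (0.69 and 0.76), and none of the 6 fell. Of the 3 members with the longer TFEB motif printed above, Atg3 fell at both time points, Atg14 fell at 34 weeks, and Atg7 did not pass the test, except under total-count scaling at 12 weeks (log2 fold change of 0.68, adjusted p = 0.0481, edgeR).

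The next comparison set treated Lipa-/- mice beside WT mice. At 12 weeks 7 of the 38 genes were higher and 8 were lower, whereas at 34 weeks 1 was higher and 0 were lower (edgeR, adjusted p under 0.05; 2 of 38 with an unadjusted p under 0.05). Of all genes tested, 19.4% were higher and 17.5% lower at 12 weeks, and 0.131% and 0.0895% at 34 weeks. The median log2 fold change of the 38 genes was -0.06 at 12 weeks and -0.10 at 34 weeks, beside 0.06 and 0.00 over all genes. With a change of over 2-fold, 4 were higher and 5 lower at 12 weeks, against 13.6% and 12.0% of all genes, and at 34 weeks 1 and 0, against 0.131% and 0.0895%. At 12 weeks the counts of members lay near the shares of all genes, so they do not set the members apart from other genes. Macrophage markers summed to 596 to 2329 CPM in treated mice at 12 weeks and to 199 to 521 CPM at 34 weeks, and hepatocyte markers to 62020 to 111302 CPM and 52606 to 76898 CPM. At 12 weeks 5 of 7 macrophage, 4 of 7 stellate (323 to 896 CPM against 93.4 to 187 CPM in WT mice), 3 of 6 T cell and 2 of 4 B cell markers were higher, 1 neutrophil and 1 Kupffer cell marker were higher, 1 endothelial marker was higher and 1 lower, and 2 of 7 hepatocyte markers were lower. At 34 weeks 1 T cell marker was higher and no other marker passed, and neutrophil markers reached 759 CPM in 1 treated mouse. The part of these markers in the members' values was not tested.

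The members that rose at 12 weeks were Gabarapl2, Map1lc3b, Atg5, Atg4a, Gabarap, Atg12 and Atg101. Gabarapl2 was at 90.1, 106 and 63.2 CPM in WT mice and at 434, 195 and 220 CPM in treated mice 10, 11 and 12, with a log2 fold change of 1.71 ± 0.41 (adjusted p = 0.0072, edgeR), or 3.28-fold. Map1lc3b was at 113, 143 and 91.8 CPM in WT mice and at 350, 216 and 201 CPM in treated mice (1.14 ± 0.31, adjusted p = 0.0118). Atg5 was at 63.3, 69.5 and 51.5 CPM in WT mice and at 173, 97.1 and 119 CPM in treated mice (1.08 ± 0.30, adjusted p = 0.014). In all of these the treated mice stood above the WT mice, and mouse 10 stood highest.

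The protease Atg4a followed the same order, with 17.5, 15.8 and 13.4 CPM in WT mice and 45.9, 20.2 and 29.3 CPM in treated mice (1.03 ± 0.28, adjusted p = 0.0125, edgeR). Gabarap, Atg12 and Atg101 had log2 fold changes of 0.82, 0.68 and 0.67, and the Atg101 call was lost in 11 of the 18 fits without 1 mouse, those without treated mouse 10, 11 or 12, WT mouse 1 or 3 or untreated mouse 8 of 12 weeks, or treated mouse 11 or 12 or untreated mouse 4, 5 or 6 of 34 weeks (adjusted p up to 0.172, edgeR). On the TPM scale, Atg12 and Atg101 were at -0.03 and -0.04. Without treated mouse 10, 0 members were higher and 6 were lower, without WT mouse 3, 1 was higher and 1 was lower, and without WT mouse 1, 4 were higher and 6 were lower. Under total-count scaling 3 members were higher and 13 lower, beside 9.58% and 28.6% of all genes. The calls of Map1lc3b, Atg5 and Atg4a were lost without treated mouse 10 and also without WT mouse 3, and that of Gabarapl2 without treated mouse 10.

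The members that fell at 12 weeks were Atg9a, Rubcn, Nbr1, Wipi1, Ulk2, Atg2b, Atg13 and Atg4c. Atg9a was at 33.7, 27.8 and 51.8 CPM in WT mice and at 6.61, 11.2 and 14.1 CPM in treated mice, with a log2 fold change of -1.82 ± 0.40 (adjusted p = 0.00526, edgeR). Rubcn (rubicon), on chr16:32642066-32698136, which restrains the endosomal PI3-kinase complex, was at 11.2, 8.18 and 13.3 CPM in WT mice and at 0.486, 4.56 and 3.99 CPM in treated mice (-1.81 ± 0.48, adjusted p = 0.0107). Nbr1, on chr11:101442962-101472781, was at 95.1, 76.2 and 155 CPM in WT mice and at 10.4, 40.1 and 46.3 CPM in treated mice (-1.75 ± 0.44, adjusted p = 0.0091). The groups did not overlap in any of these, and mouse 10 stood lowest.

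Wipi1, which rose in untreated Lipa-/- mice, was at 3.11, 4.95 and 7.51 CPM in treated mice at 12 weeks, under every WT mouse (-1.10 ± 0.31, adjusted p = 0.0143, edgeR). Ulk2 was at 23.4, 22.3 and 21.5 CPM in treated mice (-1.07 ± 0.29, adjusted p = 0.0124). The calls of Nbr1, Rubcn and Ulk2 were lost without WT mouse 3, and that of Wipi1 without WT mouse 3 or treated mouse 10. Atg9a kept its call in all 18 fits without 1 mouse.

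At 34 weeks the call was Atg16l2, the paralogue of Atg16l1, on chr7:100912241-100951495. It was at 8.67, 7.65 and 10.4 CPM in WT mice, at 7.03, 9.31 and 7.83 CPM in Lipa-/- mice and at 37.6, 22.1 and 16.4 CPM in treated mice. The treated mice stood above all other mice of the time point, and the log2 fold change against WT was 1.51 ± 0.28 (adjusted p = 0.0309, edgeR). The call was lost in 6 of the 18 fits without 1 mouse (WT mouse 1, 2 or 3 or treated mouse 9 of 34 weeks, WT mouse 1 or Lipa-/- mouse 8 of 12 weeks; adjusted p up to 0.191). It was also lost with length offsets (adjusted p = 0.123), on the TPM scale (limma, adjusted p = 0.188) and when only the groups compared were fitted (adjusted p = 0.485), whereas it held in DESeq2 (adjusted p = 0.00645). At 12 weeks Atg16l2 was at 18.1, 18.7 and 19.6 CPM in WT mice and at 17.98, 18.5 and 21.6 CPM in treated mice. All WT mice of 34 weeks thus stood below those of 12 weeks, with a log2 fold change of -1.07 that was not called.

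**Figure D3:**
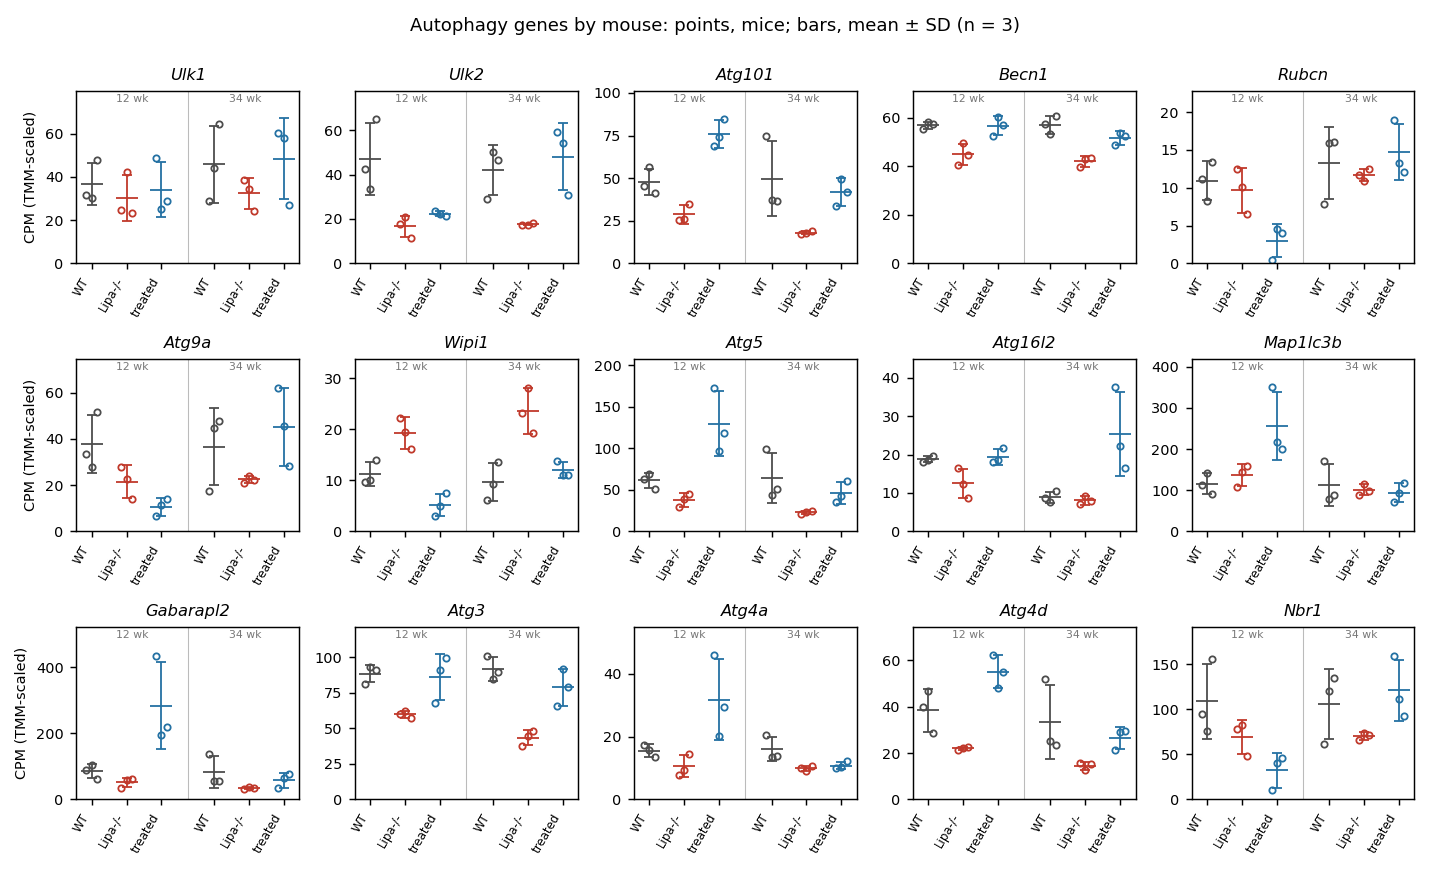
TMM-scaled CPM of 15 autophagy genes in each of the 18 livers, for WT (grey), untreated Lipa-/- (red) and rAAV8-treated Lipa-/- mice (blue) at 12 weeks (left of each panel) and 34 weeks (right). Points are mice, and bars give the mean and SD of 3 mice. Gabarapl2, Map1lc3b, Atg5 and Atg4a are highest in the treated mice at 12 weeks, where Atg9a, Rubcn and Nbr1 are lowest, and Wipi1 is highest in untreated Lipa-/- mice at both time points.

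The values in treated mice at 12 weeks moved with transcript length. When all genes tested were divided into 4 equal parts by length, the median log2 fold change against WT was 0.71 for genes of up to 1322 bases, 0.11 up to 2209, -0.17 up to 3473 and -0.36 beyond. At 34 weeks the same medians were -0.16, -0.02, 0.05 and 0.11. At 12 weeks, in the shortest part 3 of 5 members were higher and 0 lower, and in the second part 3 of 11 were higher and 1 lower. In the third part 0 of 15 were higher and 5 lower, and in the longest 1 of 7 was higher and 2 lower. The share of all genes called in each part was not counted, so these counts cannot be set beside other genes of the same length. The slope of log2 CPM on log10 length was -1.24 to -0.99 in the 3 treated mice of 12 weeks and -0.65 to 1.03 in the other 15. It was 0.45 to 0.84 in untreated and -0.65 to 0.59 in WT mice of 34 weeks. The medians by length were -0.29, -0.09, 0.05 and 0.17 in untreated against WT mice at 34 weeks. In treated against untreated mice at 12 weeks they were 0.44, -0.16, -0.39 and -0.52. Each mouse's trend with length and GC content was then removed. In untreated against WT mice at 34 weeks, 2 members were then higher and 21 lower, beside 25.8% and 25.4% of all genes. In treated against WT mice at 12 weeks, 7 members were higher and 7 lower, beside 17.1% and 15.6% of all genes. Of these, 4 of the higher and 6 of the lower members had also been called before, and Atg4d, Atg16l1 and Map1lc3a (higher) and Atg10 (lower) had not. Gabarapl2 was then at 0.95 (adjusted p = 0.0093), Map1lc3b at 0.69 (0.0227), Atg5 at 0.56 (0.0326), Atg9a at -1.11 (0.0074), Rubcn at -1.23 (0.022), Nbr1 at -1.56 (0.0111) and Wipi1 at -1.29 (0.0123), whereas Atg4a (0.32), Gabarap (0.28) and Atg13 (-0.45) no longer passed the test. This setting was chosen after the length trend had been seen.

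**Figure D4:**
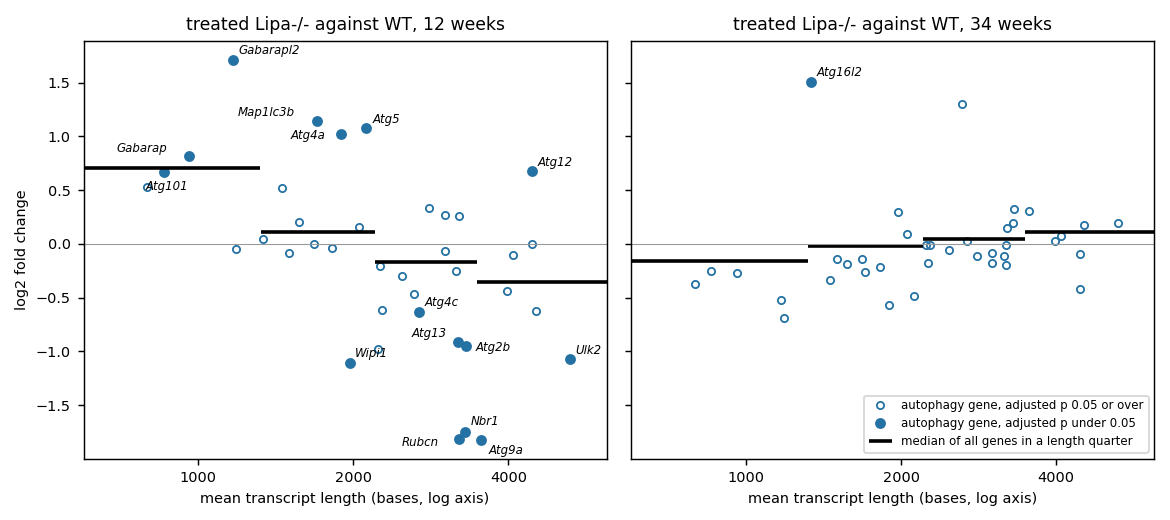
Log2 fold change between treated Lipa-/- and WT livers at 12 weeks (left) and 34 weeks (right) against the mean transcript length of each autophagy gene, in bases on a log axis. Filled points have an adjusted p under 0.05, open points do not, and black bars are medians of all genes in 4 equal parts by length. At 12 weeks the bars step down from 0.71 to -0.36, with Gabarapl2 above and Atg9a, Rubcn and Nbr1 below them, and at 34 weeks they rise from -0.16 to 0.11.

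The third comparison set treated beside untreated Lipa-/- mice, which are the same mice as in the comparisons above. At 12 weeks 12 members were higher and 5 lower in treated mice, and at 34 weeks 12 were higher and 1 was lower, while 23.8% and 30.4% of all genes tested were higher and lower at 12 weeks and 19.6% and 21.4% at 34 weeks. Cell type markers moved as well. At 34 weeks 6 of 7 macrophage, 6 of 7 stellate and 5 of 5 cholangiocyte markers were lower and 5 of 7 hepatocyte markers higher in treated mice, and at 12 weeks 4 of 7 macrophage, 4 of 6 neutrophil, 3 of 7 stellate and 3 of 5 cholangiocyte markers were lower and 3 of 7 hepatocyte markers higher. Of the other markers, at 34 weeks 1 stellate and 1 of 5 Kupffer cell markers were higher, 2 of 6 endothelial markers were higher and 2 lower, and at 12 weeks 1 macrophage, 1 stellate, 2 of 5 Kupffer cell, 2 of 4 B cell and 2 of 6 endothelial markers were higher and 1 Kupffer cell, 1 T cell, 1 endothelial and 1 hepatocyte marker were lower. Their part in the members' values was not tested. The median log2 fold change of the 38 genes was 0.33 and 0.47, beside -0.19 and 0.03 over all genes. Under total-count scaling 4 were higher and 19 lower at 12 weeks, beside 7.64% and 56.7% of all genes, and 3 and 5 at 34 weeks, beside 9.20% and 34.7%. Atg101 (log2 fold changes of 1.40 and 1.20), Atg5 (1.78 and 0.99), Atg4d (1.31 and 0.87), Atg16l1 (1.03 and 0.66), Wipi2 (0.63 and 0.82), Atg3 (0.53 and 0.86) and Rb1cc1 (0.71 and 0.48) were higher at both time points. Of these, Atg3, Rb1cc1 and Wipi2 were below 0 at 12 weeks under total-count scaling, Atg16l1 was below 0 at 12 weeks on the TPM scale, and Rb1cc1 was also below 0 at 34 weeks under both. The count of lower genes at 12 weeks was 2 without treated mouse 10 or untreated mouse 5 or 8 and 3 without treated mouse 11. At 34 weeks 7 were higher without untreated mouse 4, and 0 were lower without treated mouse 11 or untreated mouse 5.

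Wipi1 was lower in treated than in untreated mice at both time points, by 1.89 ± 0.32 and 0.97 ± 0.30 on the log2 scale (adjusted p = 0.000164 and 0.016, edgeR). At 34 weeks it was at 13.9, 11.1 and 11.1 CPM in treated mice 9, 11 and 12, against 6.19 to 13.7 CPM in WT mice. Ulk2 was at 59.1, 54.0 and 30.8 CPM in treated mice at 34 weeks, above all 3 untreated mice (1.45 ± 0.29, adjusted p = 0.000839). Atg5 was at 34.9, 42.9 and 60.2 CPM, Atg101 at 33.4, 49.7 and 41.8 CPM and Atg3 at 65.7, 91.9 and 79.2 CPM in the same mice, each above the untreated mice. In the 34-week mice Atg9a (1.01), Optn (0.73), Atg4b (0.45, but -0.09 under total-count scaling) and Atg16l2 (1.65) were also higher than in untreated mice. The Atg9a call was lost in 8 of the 18 fits without 1 mouse (treated mouse 9 or 11 or untreated mouse 4, 5 or 6 of 34 weeks, or WT mouse 1, untreated mouse 8 or treated mouse 11 of 12 weeks; adjusted p up to 0.189, edgeR).

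Between the time points, none of the 38 genes differed in WT mice (edgeR and DESeq2 0 calls; 1 of 38 with an unadjusted p under 0.05 in edgeR), beside 0.330% of all genes tested. The change in Lipa-/- mice relative to WT did not differ between 12 and 34 weeks for any member either (0 calls in edgeR and DESeq2, 0 of 38 with an unadjusted p under 0.05), beside 0.0619% of all genes, so the larger number of lower calls at 34 weeks is not shown to be a change with time. The difference between treated and WT mice did change with time for 12 members, 6 upwards and 6 downwards, against 9.08% and 10.5% of all genes. Under total-count scaling 9 went upwards and 1 downwards, beside 16.2% and 3.78% of all genes. In the main scaling both counts were 0 without WT mouse 1 or 3 or treated mouse 10 of 12 weeks, or WT mouse 1 or treated mouse 9 of 34 weeks.

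The deposited tables also give a transcript length for each gene and mouse, which is an average over the transcripts assigned to the gene and weighted by their abundance, so it moves when the mix of transcripts moves. In treated mice at 12 weeks, 2 members had a longer and 6 a shorter length than in WT mice (limma on log2 length, adjusted p under 0.05, a test added after the values had been seen), beside 1.67% and 3.84% of all genes. Becn1 was at 1308 bases (1290 to 1344) in WT mice and at 2077 bases (2033 to 2118) in treated mice, and Atg4b rose from 1823 bases to 3862 bases. Sqstm1 went from 1676 bases to 1146 bases, Rb1cc1 from 2366 to 1571 and Pik3r4, the regulatory subunit of the PI3-kinase complex, from 2562 to 1451, and Uvrag, Wipi1 and Atg4c were shorter by 0.08 to 0.29 on the log2 scale.

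In untreated Lipa-/- mice at 12 weeks no member passed this test (0 longer and 0 shorter in limma; 16 of 38 with an unadjusted p under 0.05), beside 0.268% and 0.158% of all genes. These are shares of adjusted calls, and the share of all genes with an unadjusted p under 0.05 was not counted. Becn1 was at 1789 bases (1552 to 2102), Atg4b at 2715 bases (2518 to 3065) and Sqstm1 at 1332 bases (1102 to 1521) in the untreated mice. Their adjusted p-values against WT mice were 0.233, 0.195 and 0.245 (limma). At 34 weeks Atg101 was longer, at 977 bases against 815 bases in WT mice, and no member was shorter, beside 0.365% and 0.268% of all genes. In treated mice at 34 weeks no member passed (0 longer and 0 shorter; 2 of 38 with an unadjusted p under 0.05), beside 0.00% and 0.0206%. By construction a shorter length raises the TPM value of the same count.

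**Figure D5:**
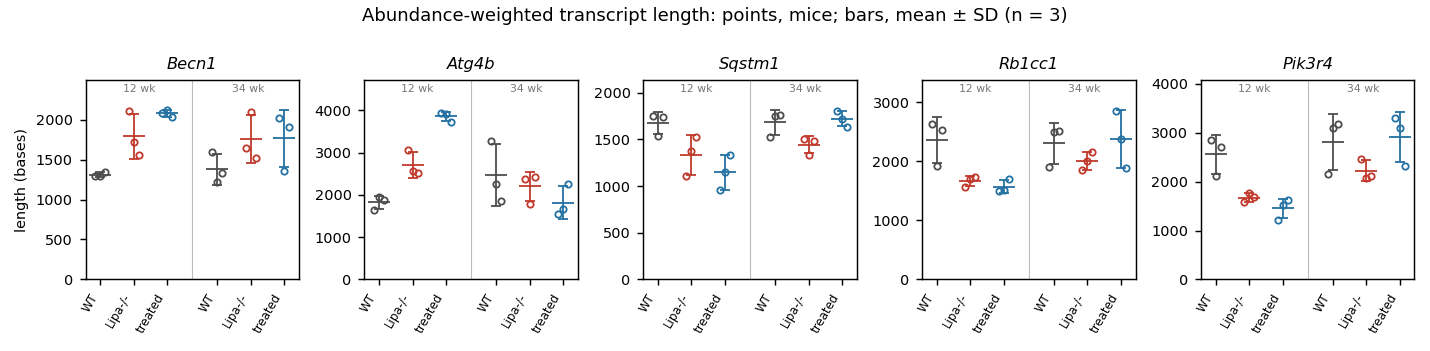
Abundance-weighted transcript length in bases, as deposited, for 5 autophagy genes in each of the 18 livers, for WT (grey), untreated Lipa-/- (red) and rAAV8-treated Lipa-/- mice (blue) at 12 and 34 weeks. Points are mice, and bars give the mean and SD of 3 mice. On average, Becn1 and Atg4b are longest and Sqstm1, Rb1cc1 and Pik3r4 shortest in treated mice at 12 weeks, where the means are 2077, 3862, 1146, 1571 and 1451 bases.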

How the data were processed

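Polyadenylated liver RNA of 18 mice was sequenced as paired-end reads. The authors quantified reads on Ensembl transcripts of GRCm39 with Salmon. Gene totals, taken with tximport, form the deposited table of expected counts, which is scaled neither for depth nor for gene length. The deposited TPM values and the transcript lengths of each gene (in bases, an average weighted by abundance) were computed by the authors in the same step, within each mouse. The labels name R 4.3.0 and DESeq2 1.40.1 for the authors' processing. A deposited table of the authors' comparisons holds log2 fold changes and p-values from DESeq2 and was not used.

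Counts were rounded, and the 14533 genes with over 100 reads in all were tested with edgeR 4.0.16 in R 4.3.3 (TMM, quasi-likelihood F-test, 6 group means, contrasts within and between time points), as were 2 interactions. P-values were adjusted with the Benjamini-Hochberg method over all genes tested. Higher and lower mean an adjusted p under 0.05, and 2-fold calls add an absolute log2 fold change over 1. SE values are the log2 fold change divided by the root of the F statistic. With 3 mice against 3, an exact permutation test of 1 gene cannot give a p under 0.1, so p-values rest on the model across genes. CPM values are TMM-scaled. Libraries held 17527848 to 25833134 reads, and all columns of the tables were matched to a labelled mouse.

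The alternatives were DESeq2 1.42.0 with length offsets, edgeR with length offsets, total-count and upper-quartile scaling, limma 3.58.1 on log2(TPM + 0.5), fits of only the groups compared, no filter, filterByExpr, an adjusted p under 0.01, each mouse left out, and the animal number of the WT mice as a block. A fit with each mouse's trend with length and GC content removed (98.4% of the tested genes had both values) and a limma fit of log2 transcript length were added after the data had been seen. The methods were tested on simulated data, in which a small part of the genes changed, as many upwards as downwards, and no trend with length was set. The simulation therefore says nothing about the dependence on scaling or on length. Positions come from GENCODE annotation of GRCm39, and promoters from RefSeq, placed on GRCm39 by exact match. By annotation 30 of the 38 genes overlap another gene on the opposite strand, and 18 overlap another protein-coding gene. These overlaps are of whole gene spans with introns, whereas reads were quantified on transcripts. According to the methods Salmon detected the library type itself, and the type found is not given. Values by mouse are given for members with a 2-fold call against WT and for Map1lc3b, Becn1 and Ulk1, and those of Sqstm1 were added after its values had been seen. Genes of the other pathway lists are named by their largest called change in each direction. Members, lists and rules were chosen with earlier results of these data known.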

Additional observations from a re-analysis of the deposited data

Results flagged for a closer look

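The difference between treated Lipa-/- and WT livers changed between 12 and 34 weeks for 12 members by an interaction test (edgeR quasi-likelihood, adjusted p between 0.0249 and 0.0462), with the change given as 34 minus 12 weeks on the log2 scale. It was downward for Gabarapl2 (-2.23 ± 0.56, SE), Atg4a (-1.59), Atg5 (-1.57), Map1lc3b (-1.41), Atg12 (-1.10) and Gabarap (-1.09), the members that were higher than in WT at 12 weeks, apart from Atg101, for which the interaction did not pass. It was upward for Ulk2 (1.26), Wipi1 (1.40), Atg16l2 (1.46), Nbr1 (1.95), Rubcn (1.96) and Atg9a (2.12 ± 0.55). For Atg16l2 the WT mice moved as well, with a log2 fold change of -1.07 from 12 to 34 weeks that was not called. The change of Atg16l2 therefore rests in large part on the WT mice.

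The values moved with transcript length, as the difference at 12 weeks did. Over all genes tested, the median interaction was -0.83 in the shortest and 0.46 in the longest of 4 equal parts by length. With the trend in length and GC content removed, 3 members passed upwards and 3 downwards, beside 6.65% and 8.10% of all genes. Time and label prefix cannot be told apart in these groups. The calls went to 0 in both directions without WT mouse 1 of 34 weeks, treated mouse 9 of 34 weeks, WT mouse 1 or 3 of 12 weeks or treated mouse 10 of 12 weeks.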

How the results depend on the processing

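Counts of members passing the test moved with the scaling, the scale of the values and the threshold. For untreated Lipa-/- against WT mice, total-count scaling gave 4 higher and 1 lower at 12 weeks and 5 and 2 at 34 weeks. Of all genes, 34.1% and 6.47% were called at 12 weeks and 40.1% and 10.6% at 34 weeks. In the same comparisons limma on TPM gave 4 and 0, and 6 and 3. Of all genes on TPM, 30.6% were higher and 5.61% lower at 12 weeks, and 41.3% and 9.37% at 34 weeks. For treated against WT mice at 12 weeks, total-count scaling gave 3 higher and 13 lower and TPM 2 and 16. Of all genes, 9.58% were higher and 28.6% lower under total-count scaling, and 4.82% and 26.8% on TPM. For treated against untreated mice, total-count scaling gave 4 higher and 19 lower at 12 weeks and 3 and 5 at 34 weeks. Of all genes, 7.64% and 56.7% were called at 12 weeks and 9.20% and 34.7% at 34 weeks. In the same comparisons TPM gave 2 and 20, and 3 and 4. Of all genes on TPM, 5.21% were higher and 57.2% lower at 12 weeks, and 8.53% and 35.8% at 34 weeks. DESeq2 gave 2 higher in Lipa-/- against WT mice at 12 weeks, beside 24.1% of all genes. In treated against untreated mice at 34 weeks DESeq2 gave 2 lower, beside 22.5% of all genes. With no filter, 0 were higher and 5 lower in Lipa-/- against WT mice at 12 weeks. Fitting only the groups compared gave 0 higher in treated against WT mice at 34 weeks, 2 lower in treated against untreated mice at 12 weeks and 0 in each direction for the treated interaction. With no filter and with only the groups compared, the share of all genes called was not counted. Length offsets and TPM gave 0 higher in treated against WT mice at 34 weeks, beside 0.117% and 0.0963% of all genes. Total-count scaling and TPM each gave 1 downward treated interaction, beside 3.78% and 1.64% of all genes.

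At an adjusted p under 0.01 (edgeR), Lipa-/- against WT mice gave 0 higher and 2 lower at 12 weeks and 9 lower at 34 weeks, treated against WT mice 1 higher and 2 lower at 12 weeks and 0 higher at 34 weeks, treated against untreated mice 2 lower at 12 weeks and 6 higher and 0 lower at 34 weeks, and the treated interaction 0 and 0. The share of all genes at this threshold was not counted, so these counts cannot be set beside other genes. With the trend in length and GC content removed, an alternative chosen after seeing the data, 2 were higher in Lipa-/- against WT mice at 34 weeks, 3 were lower at 12 weeks and 2 at 34 weeks in treated against untreated mice, 1 was lower with time in WT mice, and the treated interaction gave 3 and 3. In the same order, the shares of all genes were 25.8%, 29.1%, 23.4% and 0.179%, and 6.65% and 8.10% for the interaction. The cause of these shifts was not tested.

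Single members changed sign as follows, on the log2 scale. In Lipa-/- against WT mice, Rb1cc1 was at 0.38 (TPM) at 12 weeks, and at 34 weeks Atg10 was at 0.027 (TPM), Atg4b at 0.14 (total counts) and 0.29 (TPM), Becn1 at 0.19 (total counts) and Map1lc3b at 0.79 (TPM). In treated against WT mice at 12 weeks, Atg101 was at -0.041 and Atg12 at -0.034 (TPM). In treated against untreated mice at 12 weeks, total counts and TPM gave -0.34 and -0.62 for Atg3, -0.13 and -0.35 for Map1lc3a, -0.14 and -0.32 for Rb1cc1 and -0.24 and -0.24 for Wipi2, TPM gave -0.12 for Atg16l1 and -0.16 for Map1lc3b, and removal of the trend gave -0.10 for Atg3 and 0.0087 for Atg9a. At 34 weeks Atg4b was at -0.093 (total counts) and Rb1cc1 at -0.058 (total counts) and -0.28 (TPM). Of 90 single results, 81 kept their direction and side of the threshold in DESeq2, 80 under upper-quartile scaling, 77 with length offsets, 41 under total-count scaling, 37 at an adjusted p under 0.01 and 35 on TPM.

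Without 1 mouse at a time (18 fits), the counts of higher and lower members ranged from 0 to 1 and from 5 to 12 in Lipa-/- against WT mice at 12 weeks, and from 1 to 1 and from 10 to 17 at 34 weeks. In treated against WT mice they ranged from 0 to 8 and from 1 to 10 at 12 weeks and from 0 to 1 and from 0 to 0 at 34 weeks. In treated against untreated mice they ranged from 10 to 13 and from 2 to 7 at 12 weeks and from 7 to 13 and from 0 to 1 at 34 weeks. The treated interaction ranged from 0 to 8 upwards and from 0 to 7 downwards, and the Lipa-/- interaction and the change with time in WT mice stayed at 0.

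The WT mice of both time points share animal numbers 1 to 3. Livers were taken when the mice were killed, so equal numbers at 2 time points are not the same animal, and the numbers were not taken as pairs. Correlations of deviations were -0.24 to 0.46 for same-numbered and -0.51 to 0.42 for differently numbered mice. With 3 mice in a group they cannot decide on pairing. With the number as a replicate block 0 members were higher and 0 lower with time.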
